A study of Mus musculus with 18 samples.

Results

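The 23 genes described here were close to silent in WT regulatory T cells (Tregs) and clearly listed in Chd8-/- Tregs. They were chosen from the RNA-seq values themselves: at most 0.6 TPM in both WT libraries and at least 3 TPM in both Chd8-/- libraries, where TPM is a transcript level scaled by gene length and library total. Symbols starting with Mir, Snor, Hist, Trav, or Gm and a digit, and the genes Cdkn1a and Perp, were left out. Of 35865 genes listed under a single name, 41 met the thresholds, 18 of these were left out by symbol, and 23 remained. Among the 24378 genes left after the symbols were removed, they made up 0.0943%. Because both genotypes' values chose the genes, the differences between the genotypes are a description and no test of them is given.

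The study asked what the chromatin remodeler CHD8 does in Tregs, and measured gene expression in YFP+ cells that were sorted from CD4+ T cells of the spleen. A library was made from each of 2 Chd8-/- mice and 2 WT littermates, aged 5 to 7 weeks. The study reports that Chd8-/- mice developed fatal inflammation by that age, with enlarged spleens and activated Tregs. Loss of CHD8 in the cell and the inflamed state of the mouse therefore cannot be told apart in the differences given here. The labels give the genotype of the Chd8-/- mice as CHD8Flox/FloxFoxp3YFP-Cre and that of the WT mice as CHD8flox/floxFoxp3YFP-Cre/+, whereas the study describes WT mice with an unfloxed Chd8 gene. That discrepancy was not settled here, and the name WT follows the study. Cre is fused to YFP and read from the X-linked Foxp3 gene, so deletion and sort both depend on Foxp3 expression and other cells of the mouse keep Chd8. The labels of all 4 libraries name a Poly IC injection, each genotype was represented by 1 male and 1 female mouse, and which library came from which sex is not given in the sources used here. The ATAC-seq and CHIP-seq tables use another genome build than the gene annotation at hand and were not analysed here.

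CHD8 is an ATP-dependent helicase of the chromodomain family that moves nucleosomes and binds near the start sites of many genes. It is known as a partner of p53 and of beta-catenin that holds down their target genes. Tregs are CD4+ T cells that restrain other immune cells and depend on the transcription factor Foxp3, and genes of detoxification, meiosis, nerve cells or matrix are not part of their usual program.

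Chd8 itself was listed at 14.9 and 11.4 TPM in the Chd8-/- libraries and at 24.7 and 27.6 TPM in the WT libraries. Reads of the floxed exons are not given apart from those of the other exons. In Tregs isolated separately, the study found a strong deleted allele with a faint floxed one by PCR, and markedly less Chd8 RNA by qPCR. Foxp3, the defining factor of Tregs, was listed at 232.1 and 205.3 TPM in the Chd8-/- mice against 202.8 and 215.4 TPM in WT libraries, and those ranges overlapped. The TPM steps of very short genes gave approximate depths of 13550000 and 9517000 reads for the Chd8-/- libraries and 9606000 and 10680000 reads for the WT libraries. The Chd8-/- libraries differed widely in their markers of some other cell types, and for macrophage and erythroid markers WT lay between them. Macrophage and monocyte markers summed to 1922.7 TPM in Chd8-/- replicate 2, against 33.1 TPM in Chd8-/- replicate 1 and 302.3 and 245.5 TPM in WT. Erythroid markers summed to 2056.7 TPM in that library, against 44.0 TPM in Chd8-/- replicate 1 and 416.9 and 385.3 TPM in WT. In bulk RNA, fewer cells of a type and less RNA per cell cannot be told apart.

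**Figure D1:**
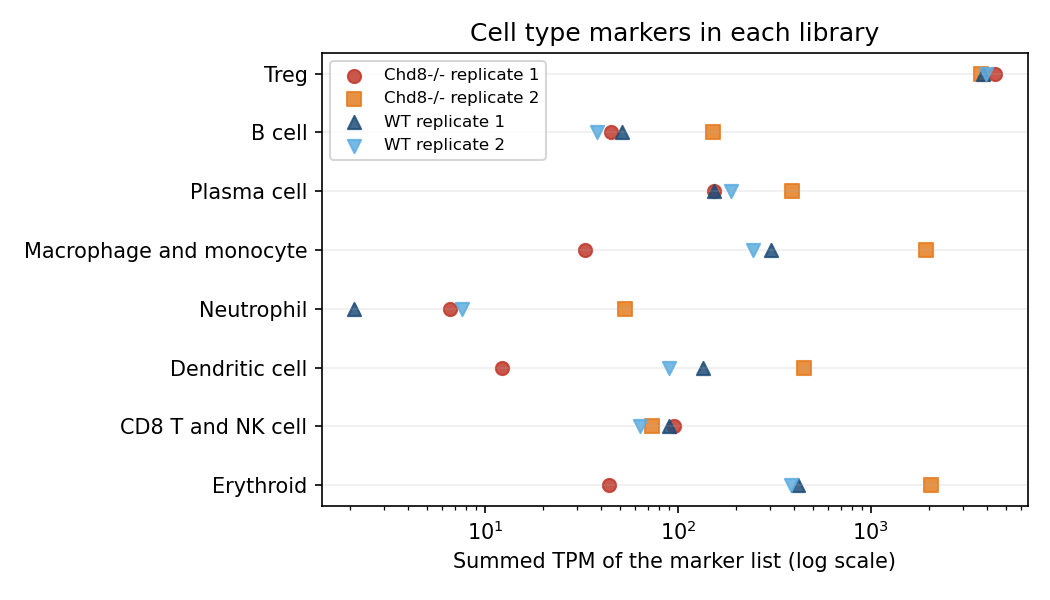
Summed TPM of 8 marker lists (vertical axis) on a log scale, with 1 point per library. Treg markers lie between 3719.8 and 4420.1 TPM in all 4 libraries, while B cell, plasma cell, macrophage, dendritic, neutrophil and erythroid markers are highest in Chd8-/- replicate 2.

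Of the 23 genes, 18 are annotated as protein-coding and 5 as long noncoding RNA. They include a p53 target (Phlda3), a stress kinase (Zak), enzymes of detoxification (Nqo1 and 3 Ugt1a genes), a metal-binding protein (Mt2), a pair of meiotic crossover factors (Ccnb1ip1 and Rnf212b), an alarmin of myeloid cells (S100a8), and genes better known from matrix, gut or nervous tissue (Tnc, Spink4, Ermn, Cdnf). The mean level over both Chd8-/- libraries ran from 3.55 to 160.5 TPM, with a median of 6.7 TPM over the genes. Only 7 genes had a mean of 10 TPM or more, and 8 reached 5 TPM in both Chd8-/- libraries. In WT, 7 of the 23 were listed at 0 in both libraries, 11 in 1 library, and 5 were above 0 in both. With the genotypes exchanged, the same thresholds and symbols gave 22 genes, so a set of about this size also met the rule in the opposite direction.

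**Figure D2:**
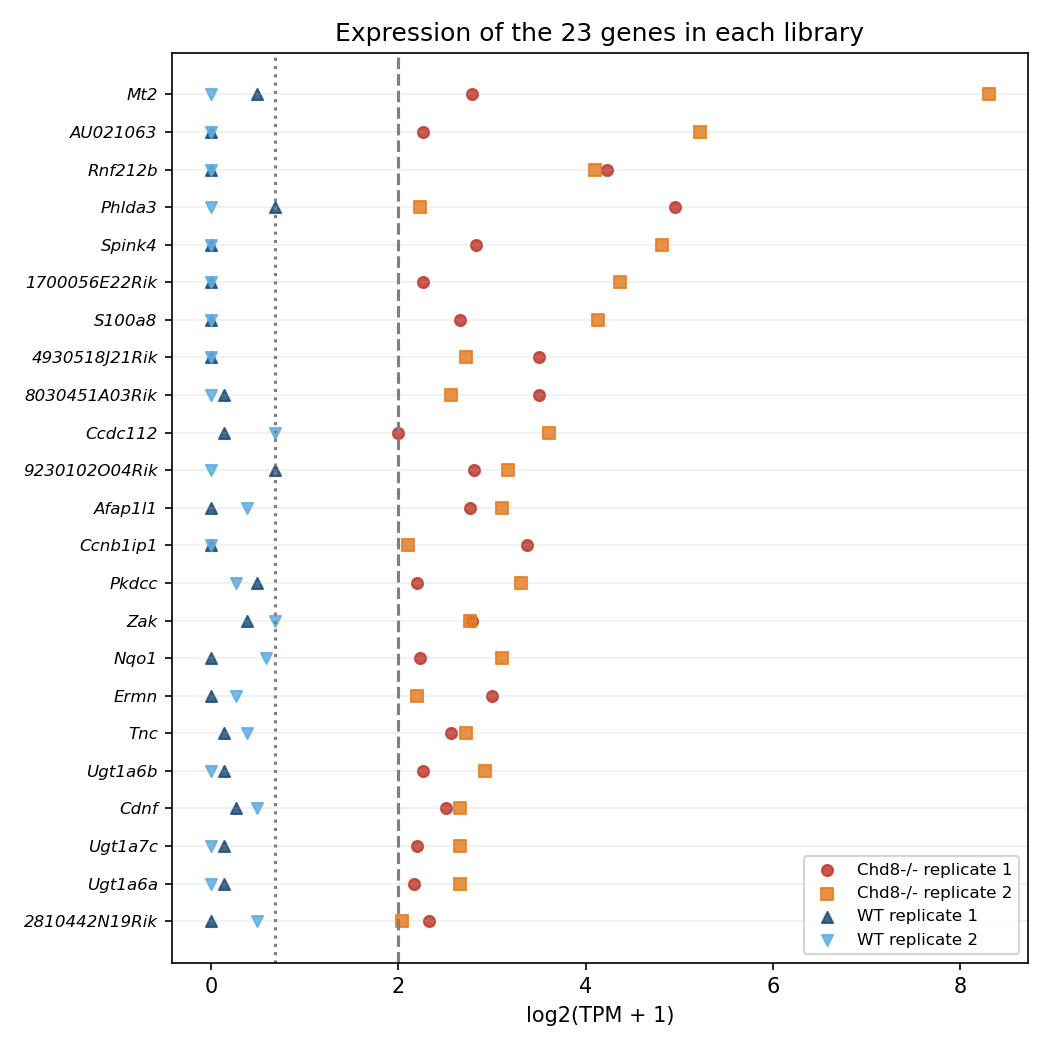
Level of each of the 23 genes as log2(TPM + 1) in the 4 libraries, ordered by the mean of the Chd8-/- libraries. The dotted line marks the WT maximum of 0.6 TPM and the dashed line the Chd8-/- minimum of 3 TPM, and the points of Mt2, AU021063 and Phlda3 are spread widest between the Chd8-/- libraries.

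The reads behind these levels were few. Taking exon lengths from the annotation, a gene of the set rested on a median of about 72 reads in Chd8-/- replicate 1 and 92 reads in replicate 2, with lowest counts of 14 and 15. Summed over the set, there were about 3558 and 3462 reads in the Chd8-/- libraries and 49 and 78 reads in the WT libraries. At most 3 reads in each WT library were derived for 13 of the genes. These counts are approximate, since the TPM are rounded to 0.1 and the annotated length may differ from the one the authors used. They cover counting error only. The protocol names an assay of 10X Genomics beside an Illumina kit, and how the former was used for these libraries is not clear. Were the reads drawn from transcript ends, scaling by gene length would distort levels between genes, though not the ratio of a gene between libraries.

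**Figure D3:**
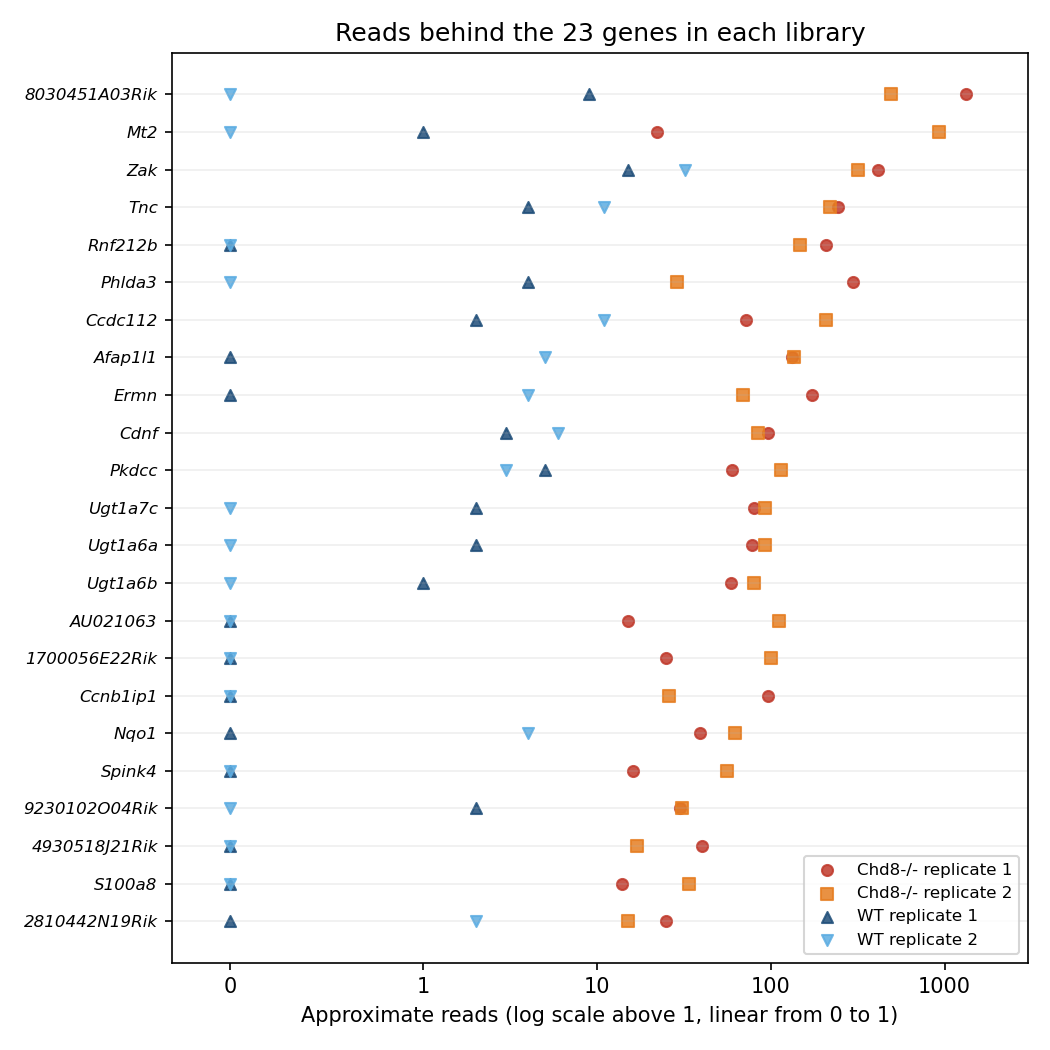
Approximate reads of each gene in the 4 libraries, on an axis that is linear from 0 to 1 and logarithmic above. No Chd8-/- point lies under 14 reads, and the highest WT point is Zak with 32 reads.

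Rnf212b was the most even of the 7 genes with a mean of 10 TPM or more. It encodes a RING finger protein related to Rnf212 that acts at meiotic crossover sites, and lies on chromosome 14 from 54783341 to 54854110 on the plus strand (GRCm38, as are all gene positions here). It was listed at 17.8 and 16.2 TPM in the Chd8-/- mice and was at 0 in both WT libraries. Its Chd8-/- mean of 17.0 ± 1.13 TPM (SD, n = 2) was at least 49.1-fold higher than a floor of 3 reads per WT library. It was the only gene of the set with 10 TPM or more in both Chd8-/- libraries. Exons of Rnf212b overlap those of Homez on the other strand by 239 nt. Homez, a homeobox gene, was listed at 3.4 and 3.3 TPM in the Chd8-/- mice against 1.3 and 1.6 TPM in WT, far under Rnf212b in the first genotype and above it in the second.

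Ccnb1ip1, also called HEI10, is a RING-domain protein that marks crossover sites in meiosis. Its level was 9.4 and 3.3 TPM in the Chd8-/- mice and 0 in both WT libraries, a mean at least 16.0-fold above the WT floor. Both crossover genes lie on the chromosome of Chd8, on either side of it: Ccnb1ip1 at 1.44 Mb and Rnf212b at 2.59 Mb, measured between gene centres. These were the only members within 5 Mb of Chd8, 2 of 23 or 8.7%, against 0.93% of all positioned genes after the same symbols were left out. Among the 112 genes tested in that window other than Chd8, 5.36% had both Chd8-/- libraries above both WT libraries with a log2 difference of at least 1, and 11.6% lay under them by as much. Over all 15240 genes tested, meaning those with at least 1 TPM in 2 or more libraries, the shares were 4% and 9.05%. Rnf212b and Ccnb1ip1 are among the 112 and count toward the 5.36%, where the rule had placed them. The 5.36% therefore overstates the share among genes that the rule did not choose. On the rest of chromosome 14, 7.92% of 442 genes tested were higher in this sense and 7.69% lower. On all other chromosomes the shares were 3.82% and 8.51%. The genes around Chd8 thus lay in both directions, and whether the place near the deleted gene had a part in either crossover gene was not tested.

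**Figure D4:**
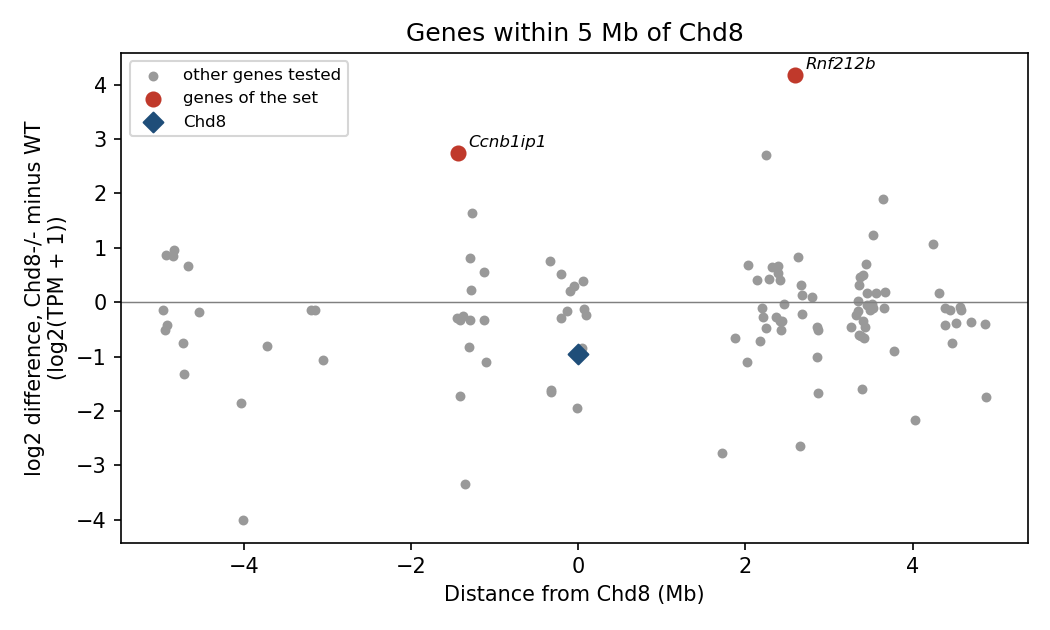
Difference of each gene tested within 5 Mb of Chd8 between the genotypes (vertical axis, log2(TPM + 1), Chd8-/- minus WT) against its distance from Chd8 in Mb. Rnf212b and Ccnb1ip1 are the highest points, with values of 4.17 and 2.74, among genes on both sides of 0, and Chd8 is at -0.95.

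Rnf212, the relative that gave Rnf212b its name, was listed at 0 and 1.7 TPM in the Chd8-/- mice against 0.1 and 0 TPM in WT. In a list of 11 crossover genes drawn up after the values were seen, 5 could be tested, and the 2 with both Chd8-/- libraries above WT were the members, as the rule required. Of a list of 18 germline genes, among them synaptonemal complex and piRNA genes, 4 could be tested. None of them (0 of 4) was higher in both Chd8-/- libraries than in both WT libraries, and Sycp3 and Rec8 were lower in both. Among all genes tested 14.8% were higher and 27.8% lower in this sense, so that a count over 4 genes does not set the list apart. Sycp3, a synaptonemal complex protein, was listed at 1.3 and 2.0 TPM in the Chd8-/- mice against 4.2 and 2.2 TPM in WT.

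Phlda3, a p53 target whose protein binds membrane lipids and holds Akt in check, had the widest ratio between the mice among genes higher in replicate 1. It was listed at 30.1 and 3.7 TPM in the Chd8-/- mice against 0.6 and 0 TPM in WT. Chd8-/- replicate 1 was thus 8.14 times replicate 2, and the mean was 16.9 ± 18.7 TPM (SD, n = 2), an SD above the mean. The gene lies on chromosome 1 from 135766085 to 135769134 on the plus strand. Cdkn1a and Perp, p53 targets left out by the rule, were even between the mice, at 190.7 and 150.1 TPM and at 17.7 and 15.1 TPM in Chd8-/-, with 0.5 TPM or less in WT.

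Of 35 p53 target genes in a list, 32 could be tested, 16 had both Chd8-/- libraries above both WT libraries, and 3 had both under them. Phlda3, Cdkn1a and Perp are among the 16 and had to be, since they met the thresholds of the rule. Without them, 13 of 29 were above (44.8%) and 3 under (10.3%), where the shares over all genes tested were 14.8% and 27.8%. The median log2 difference of the list was 0.42, and 0.29 without those 3 genes, where that of all genes was -0.15. No gene of the list passed an adjusted p of 0.05 in limma (0 of 32, two-sided, Benjamini-Hochberg over 15240 genes), and neither did any other gene tested, a background of 0%. At an unadjusted p under 0.05, limma gave 1555 genes, 595 of them higher without CHD8 and 960 lower, and after quantile normalization the split was 775 to 815. The list held members near the set's pattern, such as Psrc1, a microtubule regulator of mitosis, at 39.8 and 81.1 TPM in Chd8-/- and 0.6 and 3.6 TPM in WT. It also held genes of the opposite direction, such as Sesn1, a stress-induced brake on mTORC1, at 59.8 and 33.2 TPM in Chd8-/- and 159.0 and 166.2 TPM in WT. Trp53, which encodes p53, was listed at 89.1 and 60.6 TPM in the Chd8-/- mice against 88.6 and 75.5 TPM in WT, with overlapping libraries.

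Zak, now named Map3k20, is a kinase that senses stalled ribosomes and starts stress signalling. Its levels were nearly the same in both Chd8-/- mice, at 5.9 and 5.8 TPM, and it had the highest WT reads of the set, at 0.3 and 0.6 TPM. The fold between the means was 13.0, the lowest of those with more than 3 reads in WT. Cdnf, a secreted neurotrophic factor of the endoplasmic reticulum, was nearly as even, at 4.7 and 5.3 TPM in Chd8-/- and 0.2 and 0.4 TPM in WT, a fold of 16.7. Its relative Manf was listed at 68.7 and 58.7 TPM in the Chd8-/- mice against 36.0 and 44.7 TPM in WT. Manf was thus above its WT range in both mice, with a log2 difference of 0.65 (SE 0.24, n = 2 per genotype, adjusted p = 0.487 from limma), although it was far from silent in WT. Hspa14, a chaperone gene that starts 0.3 kb from Cdnf on the other strand, was listed at 28.5 and 23.3 TPM in the Chd8-/- mice against 18.8 and 21.6 TPM in WT.

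Detoxification was represented by Nqo1 and the Ugt1a genes. Nqo1 reduces quinones and is a classic target of the antioxidant factor NRF2. Its level was 3.7 and 7.6 TPM in the Chd8-/- mice against 0 and 0.5 TPM in WT, a fold of 22.6 between the means. Among other genes of the antioxidant response, Hmox1, which degrades heme, was listed at 9.4 and 126.7 TPM in the Chd8-/- mice against 191.3 and 189.4 TPM in WT, so that both Chd8-/- libraries were lower. Gclc, an enzyme of glutathione synthesis, was listed at 22.5 and 15.7 TPM in the Chd8-/- mice against 26.0 and 31.0 TPM in WT. Of 9 xenobiotic and antioxidant genes tested, from a list drawn up after the values were seen, Nqo1 was the 1 gene with both Chd8-/- libraries above WT, which the choice of members fixed, 2 were under, and 6 overlapped. Without Nqo1 that is 0 of 8 above and 2 of 8 under, too few genes to set apart from the 14.8% and 27.8% of all genes tested.

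The UDP-glucuronosyltransferases of the Ugt1a locus attach glucuronic acid to drugs, bilirubin and hormones. Ugt1a6a was listed at 3.5 and 5.3 TPM in Chd8-/-, Ugt1a6b at 3.8 and 6.6 TPM, and Ugt1a7c at 3.6 and 5.3 TPM, each with 0.1 and 0 TPM in WT. All lie on the plus strand of chromosome 1 and end within the same stretch, Ugt1a6a running from 88134809 to 88220002. They have their own first exons and common later ones: Ugt1a6a shares 2316 of its 3302 exonic nucleotides with Ugt1a7c and 1312 with Ugt1a6b. The other Ugt1a genes, Ugt1a1, Ugt1a2, Ugt1a5, Ugt1a9 and Ugt1a10, were listed at 2.7 TPM in Chd8-/- replicate 1 and between 5.4 and 5.7 TPM in replicate 2, so that they missed the threshold of 3 TPM in replicate 1 by 0.3 TPM. Which of these genes the reads came from cannot be told apart, and the 3 members are best read as 1 locus.

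Mt2 had the highest level and the widest spread. Metallothioneins are small proteins that bind zinc and copper, and Mt2 and Mt1 are usually expressed together. Mt2 was listed at 5.9 and 315.1 TPM in the Chd8-/- mice against 0.4 and 0 TPM in WT. The second Chd8-/- library was 53.4 times the first, and no other gene of the set differed as much. Mt1, which starts 5.3 kb from the end of Mt2, was listed at 0.2 and 2.5 TPM in the Chd8-/- mice against 2.8 and 0.3 TPM in WT, with overlapping libraries. The Mt2 level was therefore high in the same library that had the high macrophage and erythroid marker sums, and the part of those cells in it was not tested. The set summed to 162.3 and 532.3 TPM in the Chd8-/- libraries with Mt2 and to 156.4 and 217.2 TPM without it.

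S100a8 encodes a subunit of calprotectin, which neutrophils and monocytes make together with S100a9. Its level was 5.3 and 16.5 TPM in the Chd8-/- mice and 0 in both WT libraries, at least 7.15-fold above the WT floor, from about 14 and 34 reads. S100a9 was listed at 0 and 23.1 TPM in the Chd8-/- mice against 0.6 and 0 TPM in WT. The partner was thus at 0 in the first Chd8-/- mouse, where S100a8 was not. The 11 neutrophil markers, which include S100a8 and S100a9, summed to 6.6 and 52.9 TPM in Chd8-/- and to 2.1 and 7.6 TPM in WT. Most of the sum in each Chd8-/- library came from S100a8, which the rule chose, and S100a9, so it is no separate sign of neutrophils. Of the defining genes of neutrophils, Ly6g was listed between 0.8 and 1.1 TPM in all 4 libraries. Mpo was at 0.3 and 4.6 TPM in Chd8-/- and 0.5 and 0.1 TPM in WT, and Retnlg at 0 throughout. The part of neutrophil or monocyte RNA in the S100a8 level was not tested.

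Spink4, a serine peptidase inhibitor known from goblet cells of the gut, was listed at 6.1 and 27.1 TPM in the Chd8-/- mice and was at 0 in both WT libraries. That mean was at least 10.9-fold above the WT floor. Its neighbour Bag1, a co-chaperone 5.0 kb away on the other strand, was also above its WT range, at 140.3 and 171.7 TPM in Chd8-/- and 91.6 and 81.6 TPM in WT. Of 9 epithelial markers, 4 could be tested, 2 had both Chd8-/- libraries above WT and none had both under (0 of 4), where 14.8% and 27.8% of all genes tested did. Epcam was listed at 42.0 and 49.0 TPM in the Chd8-/- mice against 19.3 and 21.4 TPM in WT, and the keratin Krt18 at 2.3 and 2.0 TPM against 0.6 and 0.7 TPM. Another keratin, Krt10, reached 7.2 TPM in Chd8-/- replicate 1 against 0.6 TPM in replicate 2 and 1.1 and 0.6 TPM in WT. Krt1, Krt5, Krt8 and Krt14 were at 0.4 TPM or less in all 4 libraries. The libraries overlapped for Cdh1, at 3.0 and 0.1 TPM in Chd8-/- and 0.4 and 0.3 TPM in WT. They also did for Dsp, at 1.9 and 0.3 TPM against 1.2 and 1.5 TPM. The part of epithelial RNA in the Spink4 level was not tested.

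Tnc encodes tenascin C, a large matrix glycoprotein of remodelling tissue. Its level was 4.9 and 5.6 TPM in the Chd8-/- mice against 0.1 and 0.3 TPM in WT, a fold of 26.2, from about 244 and 218 reads. The long noncoding RNA 8030451A03Rik runs through Tnc on the other strand, and the genes share 969 exonic nucleotides, 13.1% of Tnc and 5.07% of 8030451A03Rik. That RNA was listed at 10.3 and 4.9 TPM in the Chd8-/- mice against 0.1 and 0 TPM in WT. With exons of 19102 nt it had the most reads of the set in 1 library, about 1327 in Chd8-/- replicate 1. Whether the libraries kept the strand is not given in the sources used here, so the shared stretch cannot be assigned, but most of each gene lies outside it. Tnfsf8, which encodes the ligand of CD30, a receptor of the TNF receptor family on activated lymphocytes, lies 98.3 kb from Tnc. It was listed at 291.9 and 225.9 TPM in the Chd8-/- mice against 79.5 and 72.9 TPM in WT, a log2 difference of 1.74 (SE 0.21, n = 2 per genotype, adjusted p = 0.373 from limma). The rule had already placed Tnc and 8030451A03Rik above their WT range. Tnfsf8, which it did not choose, was above its own in both Chd8-/- mice, from a much higher WT level.

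Afap1l1, a relative of an actin-filament-binding protein, was listed at 5.8 and 7.6 TPM in the Chd8-/- mice against 0 and 0.3 TPM in WT, a fold of 44.7. Ermn, the cytoskeletal protein ermin of myelin-forming cells, was listed at 7.0 and 3.6 TPM in the Chd8-/- mice against 0 and 0.2 TPM in WT. Pkdcc, a secreted protein kinase of skeletal development, was listed at 3.6 and 8.9 TPM in the Chd8-/- mice against 0.4 and 0.2 TPM in WT. Its fold of 20.8 was close to that of the coiled-coil protein Ccdc112, 20.3, which was listed at 3.0 and 11.2 TPM in the Chd8-/- mice against 0.1 and 0.6 TPM in WT. Ccdc112 sat on both thresholds at once, at exactly 3.0 and 0.6 TPM. In a list of neuron and synapse genes, 2 of 5 tested genes were above WT in both mice and 2 were under, where the shares over all genes tested were 14.8% and 27.8%.

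The remaining genes are the long noncoding RNAs 2810442N19Rik, 4930518J21Rik, 9230102O04Rik and AU021063, and the protein-coding model 1700056E22Rik. The RNA 4930518J21Rik was listed at 10.3 and 5.6 TPM in the Chd8-/- mice and was at 0 in both WT libraries, at least 7.62-fold above the floor. AU021063 had 3.8 and 36.4 TPM in Chd8-/- and 0 in both WT libraries, and 1700056E22Rik had 3.8 and 19.6 TPM and 0. Both were much higher in the mouse with the high macrophage and erythroid marker sums. All of the exonic sequence of AU021063 is covered on the other strand by exons of A330009N23Rik, which was listed at 0.7 and 6.5 TPM in the Chd8-/- mice against 0.5 and 0 TPM in WT, so the source of its reads cannot be told apart. The same holds for 2810442N19Rik, listed at 4.0 and 3.1 TPM in the Chd8-/- mice against 0 and 0.4 TPM in WT, of which 81.9% is covered by the dynamin gene Dnm3 on the other strand. Dnm3 had 2.3 and 0.6 TPM in Chd8-/- and 0.1 TPM in both WT libraries, a matching direction.

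The RNA 9230102O04Rik lies at the start of Gata3, the transcription factor of type 2 helper T cells, which Tregs also use. Its level was 6.0 and 8.0 TPM in the Chd8-/- mice against 0.6 and 0 TPM in WT. It shares 77 nt of its 737 nt with Gata3 on the same strand. On the other strand it shares 101 nt with 4930412O13Rik, listed at 6.9 and 3.9 TPM in Chd8-/- and 2.5 and 2.1 TPM in WT. Reads of the shared stretches cannot be assigned, but most of the RNA lies outside them. Gata3 was listed at 83.5 and 80.8 TPM in the Chd8-/- mice against 76.4 and 60.9 TPM in WT, a far smaller ratio than that of 9230102O04Rik. Among the effector T cell genes of a list to which Gata3 belongs, 3 of 9 tested had both Chd8-/- libraries above WT and 4 had both under, against 14.8% and 27.8% of all genes tested. The cytokine Il4 was on the higher side, at 7.6 and 1.9 TPM in Chd8-/- and 0 and 0.3 TPM in WT. The protease Gzmb was on the lower side, at 11.7 and 3.1 TPM in Chd8-/- and 35.6 and 27.6 TPM in WT. The list held 17 genes, and those without 1 TPM in 2 or more libraries were not tested. Among these, Il13, Il21, Il22 and Csf2 had both Chd8-/- libraries above WT, each at 0.4 TPM or less in Chd8-/- replicate 1. Il13 was at 0.4 and 37.0 TPM in Chd8-/- and 0 and 0.3 TPM in WT. For Il2, Il5, Il17a and Il17f the libraries overlapped. By flow cytometry after stimulation, the study reports higher effector cytokines in Chd8-/- Tregs, IL-4 and IL-13 among them.

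The Chd8-/- mice differed from each other more in this set than in genes at large. The higher library was at least 2 times the lower in 11 of the 23 genes, with a median ratio of 1.94 over the set. Of the 10716 genes with at least 3 TPM in both Chd8-/- libraries, 18.3% differed by as much, with a median ratio of 1.35. Low counts widen such ratios, and the set is of low level, so the comparison is a description. Chd8-/- replicate 2 was the higher library in 15 genes and replicate 1 in 8, while 38.1% of the 10716 genes were higher in replicate 2. Mt2, AU021063, Phlda3 and 1700056E22Rik differed 5 times or more. Phlda3 was the only one of these higher in replicate 1, the mouse with the low macrophage and erythroid marker sums. Rnf212b, Zak, Cdnf, Tnc, Afap1l1, 9230102O04Rik, 2810442N19Rik and Ugt1a7c differed by less than 1.5 times.

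**Figure D5:**
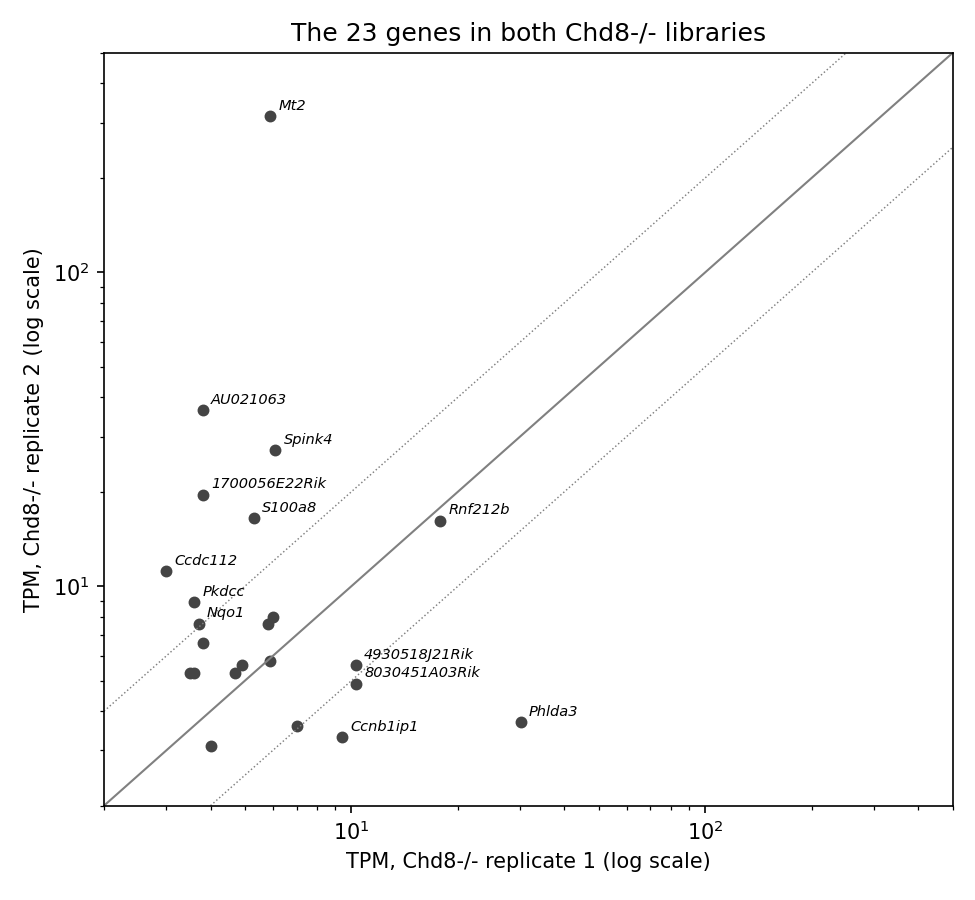
TPM of the 23 genes in Chd8-/- replicate 1 (horizontal) and replicate 2 (vertical), both on log scales, with the line of equality and dotted lines at a ratio of 2. Mt2 lies farthest above the line, at 5.9 and 315.1 TPM, and Phlda3 farthest below it, at 30.1 and 3.7 TPM.

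The thresholds fell within a continuum. Just outside on the WT side were Scin, the actin-severing protein scinderin, with 19.2 and 22.8 TPM in Chd8-/- and 0.8 and 0 TPM in WT, then Pgap3 with 3.4 and 3.0 TPM in Chd8-/- and 0.9 and 0.6 TPM in WT, and Scrn2. Just inside were 9230102O04Rik, Ccdc112 and Phlda3, each with 0.6 TPM in 1 WT library. On the Chd8-/- side, 4933406C10Rik, LOC108167898 and Mid2 missed the minimum with 2.9 TPM in replicate 1, and Ccdc112, 2810442N19Rik and Ccnb1ip1 passed with lowest values of 3.0, 3.1 and 3.3 TPM. Among genes under the WT maximum, 61 reached 3 TPM in Chd8-/- replicate 1 alone and 137 in replicate 2 alone, many more than the 23 that did so in both.

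Of 26 nearest neighbours that could be tested and were not members, 7 or 26.9% had both Chd8-/- libraries above both WT libraries and 9 or 34.6% had both under them. Both shares were above those of all genes tested, 14.8% and 27.8%, and that difference was not tested. Their median log2 difference was -0.11, against -0.15 over all genes. Hspa14, Tnfsf8 and Bag1, given above, were among the 7. Among the 9 was Ppp1r3e, 21.5 kb from Rnf212b, at 0 and 0.8 TPM in Chd8-/- and 5.9 and 9.1 TPM in WT. Another was Rpph1, 11.7 kb from Ccnb1ip1, at 64.3 and 194.8 TPM in Chd8-/- and 425.7 and 322.4 TPM in WT. Dusp10, a MAP kinase phosphatase that starts 0.4 kb from 1700056E22Rik on the other strand, was listed at 12.6 and 27.7 TPM in the Chd8-/- mice against 21.7 and 14.9 TPM in WT, with overlapping libraries.

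The bases before the start sites were taken from the RefSeq promoter table of GRCm38.p6, which matched 18 of the 23 genes. Windows of 250 bases were searched on both strands. A CpG ratio of at least 0.6 together with a GC content of at least 50% was found in 5 of 18 members (27.8%), in 31.4% of all 27025 promoters, and in 57.0% of the promoters of genes tested. The TATA box (TATAAA) was found in 3 of 18, Nqo1, S100a8 and Tnc, or 16.7%, against 13.0% of all promoters and 7.28% of those of genes tested. A p53 half-site was found in 1 of 18, Ugt1a7c, against 7.18% and 6.09%, and none was found in the Phlda3 window. The antioxidant response element (TGACNNNGC) was found in 2 of 18, Mt2 and Zak, against 10.1% and 11.7%, and none was found in the Nqo1 window. The xenobiotic response element core (GCGTG) was found in 3 of 18 against 28.2% and 42.1%. A loose form of the metal response element core (TGCNCNC, where N is any base) was found in 7 of 18 against 43.8% and 50.1%. These last 3 motifs were chosen after the values were seen. A match says only that the letters are present, and sequence outside the windows was not searched.

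The Mt2 window was the exception in number, with 5 matches to TGCNCNC, a count reached by 0.311% of all promoters. That pattern is a loose form of the metal response element core, so not every match need be such an element. It is shown because Mt2 led the set in level, with the matches in capitals, from chr8:94172368-94172617 on the plus strand.
Mt2: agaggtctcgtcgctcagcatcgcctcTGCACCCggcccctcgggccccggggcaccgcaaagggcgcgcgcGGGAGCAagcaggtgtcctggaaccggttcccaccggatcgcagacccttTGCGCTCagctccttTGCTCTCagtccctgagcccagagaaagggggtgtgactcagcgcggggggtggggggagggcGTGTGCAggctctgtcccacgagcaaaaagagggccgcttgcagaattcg

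The windows of Nqo1, from chr8:107403206-107403455 on the minus strand, and S100a8, from chr3:90668821-90669070 on the plus strand, show the TATA box in capitals, which begins 29 bases before the start in Nqo1 and 30 bases before it in S100a8. They have CpG ratios of 0.3 and 0.12.
Nqo1: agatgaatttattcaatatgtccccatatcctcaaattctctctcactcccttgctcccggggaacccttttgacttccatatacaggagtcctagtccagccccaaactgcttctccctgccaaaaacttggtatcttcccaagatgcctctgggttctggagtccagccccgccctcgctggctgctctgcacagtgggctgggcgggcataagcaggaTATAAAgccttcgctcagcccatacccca
S100a8: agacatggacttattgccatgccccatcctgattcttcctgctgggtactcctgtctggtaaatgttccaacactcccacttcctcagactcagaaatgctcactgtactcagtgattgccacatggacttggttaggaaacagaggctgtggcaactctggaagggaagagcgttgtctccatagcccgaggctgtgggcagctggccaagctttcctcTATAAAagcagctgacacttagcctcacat

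The Rnf212b window, from chr14:54813900-54814149 on the plus strand, is shown for contrast, as that of the most even of the higher members. It has no TATA box and 13 CpG dinucleotides, in capitals, with a CpG ratio of 0.68. The start used by the table lies 30.8 kb inside the annotated gene.
Rnf212b: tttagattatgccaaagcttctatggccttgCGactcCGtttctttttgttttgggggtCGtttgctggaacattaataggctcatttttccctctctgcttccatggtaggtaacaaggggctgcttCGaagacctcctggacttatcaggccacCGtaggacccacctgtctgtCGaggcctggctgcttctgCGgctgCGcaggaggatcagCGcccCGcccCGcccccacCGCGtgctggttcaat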

How the data were processed

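RNA of sorted Tregs was measured in 4 libraries, grouped by their labels. Trimming, alignment to mm10 (STAR), duplicate removal (sambamba) and counting over RefSeq genes (featureCounts) were done by the authors, who deposited TPM rounded to 0.1. The members of the set, the gene lists and the marker lists were chosen with earlier results of these data known. From 35869 rows, 4 under repeated names were left out. Genes with at least 1 TPM in 2 or more libraries were compared as log2(TPM + 1) with limma (version 3.58.1, R version 4.3.3), by a linear model per gene and eBayes with a mean-variance trend. With 2 libraries a genotype, exact permutation of labels cannot give p below 0.333. Reads were derived from the step of TPM times exon length over genes shorter than 150 nt. Under 100 nt, 99.5% to 100.0% of values of fewer than 10 reads lay within 0.15 of a whole read, and from 200 to 400 nt 58.8% to 65.8%. Positions and lengths came from RefSeq GRCm38.p6, which placed 92.9% of the genes. Every member is named with its values, as are genes nearest the thresholds, and partners, relatives and neighbours chosen after their values were seen. Scripts were tested on simulated data (Python 3.11.15, numpy 2.4.6, pandas 2.3.3, matplotlib 3.10.9). ATAC-seq and CHIP-seq peaks, in mm39, were not used.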

Additional observations from a re-analysis of the deposited data

How the results depend on the processing

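The size of the set followed the thresholds. It held 14 genes with a WT maximum of 0.3 TPM, 40 with a Chd8-/- minimum of 2 TPM and 8 with a minimum of 5 TPM, against 23 as reported. Leaving out a library gave between 36 and 160 genes: 160 without Chd8-/- replicate 1, 84 without Chd8-/- replicate 2, 36 without WT replicate 1 and 45 without WT replicate 2, since fewer values then had to pass. After quantile normalization 28 genes passed, all 23 members among them. Alternatives added after seeing the data were at least 10 reads in both Chd8-/- and at most 10 in both WT libraries (20 genes), genes sharing exons counted once (20) and genes near Chd8 left out (21). limma called 2 genes, Cdkn1a and Mir7649, when those with a mean of at least 5 TPM were tested, and 0 under the other alternatives. The smallest adjusted p lay between 0.0347 and 0.971 over these alternatives. With a replicate block it called 0 genes, with a smallest adjusted p of 0.552, and 1336 genes at an unadjusted p under 0.05. The deviations of same-numbered libraries had a correlation of -0.012 across genes. A value over all genes cannot show whether the libraries were paired, for example by sex or litter. Quantile normalization moved the median log2 difference of all genes from -0.15 to -0.02, and the full p53 list then had 18 genes above and 5 under, where 20.9% and 21.5% of all genes were. Without each replicate in turn, the full p53 list had between 18 and 23 genes above, while up to 32.5% of all genes were. The planned ATAC-seq and CHIP-seq alternatives were not run. Depth limits the WT side, where 13 genes rest on at most 3 reads per library and a level of 0 means under the floor.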

Other observations

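The thresholds were also met by 10 microRNA precursor entries, 1 small nucleolar RNA and 5 predicted genes, which the symbols left out. The microRNA entries are 56 to 110 nt long and rested on few reads. Mir7649 was listed at 161.5 and 145.5 TPM in the Chd8-/- mice and was at 0 in both WT libraries, from about 61 and 43 reads. Mir6541 was as even, at 56.6 and 56.9 TPM from about 42 and 33 reads. Mir34a, a microRNA known as a p53 target, was listed at 10.2 and 3.7 TPM in Chd8-/- from about 7 and 2 reads, and at 0 in WT. Among the predicted genes, Gm35895 had 91.6 and 11.0 TPM in Chd8-/- and 0 in both WT libraries, and Gm42237 had 9.3 and 10.2 TPM in Chd8-/- and 0.2 and 0.1 TPM in WT. Libraries of long RNA measure the transcripts around a microRNA and not the mature form.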
